A study of Homo sapiens with 12 samples.

Results

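The genes described here encode 46 factors that end RNA polymerase II transcripts: the cleavage and polyadenylation machinery, the PAF1 complex, Integrator, and factors that stop the polymerase or keep it from stopping early. They were taken from a list of symbols and matched to Ensembl identifiers, and each of the 46 matched 1 of the 63677 genes counted in every library. All 46 passed the filter on low counts, among 21325 genes tested. The question asked of them was whether their mRNAs were lower after knock-down of the lncRNA LINC01956 (ENSG00000258910, RP19 in the sample titles) in each cell line, in a setting where transcription may run past the ends of genes.

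MDA-MB-468, SUM149PT and HCC38 are established human basal-like breast cancer lines. Knock-down cells received 50 nM of LNA1 and LNA2 together, antisense GapmeRs against LINC01956, and LNA NS cells received a non-targeting LNA. Medium was replaced at 6 h and poly-A RNA was collected 24 h after transfection, with 2 libraries per line and treatment and 12 in all. Nothing in the labels tells whether both libraries of a treatment were grown as separate cultures, and p-values therefore measure the spread between these libraries only. LNA1 and LNA2 were given together, so effects of either one on other transcripts cannot be told apart from those of losing the lncRNA.

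When RNA polymerase II passes a polyadenylation signal, the cleavage and polyadenylation specificity factor (CPSF) and the cleavage stimulation factor (CstF) bind the nascent RNA, the RNA is cut, and a poly(A) tail is added to the upstream piece. The downstream piece is degraded from its new end by the exonuclease XRN2 while a phosphatase complex slows the polymerase, and both events together release it from DNA. Integrator, a separate complex with its own endonuclease, ends small nuclear RNAs and attenuates many protein-coding genes near their start. The PAF1 complex and SPT5 travel with the elongating polymerase and recruit parts of the 3-prime end machinery.

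Gene counts per library ran from 32187835 to 56191152. LINC01956 had 2 counts over both knock-down libraries and 52 over both LNA NS libraries of MDA-MB-468, 45 against 742 in SUM149PT and 157 against 1405 in HCC38. The 5 epithelial markers checked summed to between 1682 and 4278 CPM in knock-down libraries and between 1751 and 5568 CPM in LNA NS libraries. Of 5 blood and immune markers, 4 stayed under 1 CPM in all libraries. Sums in LNA NS libraries were 64.4 to 4104 CPM for 5 basal, 113 to 226 for 5 luminal and 52.5 to 2243 for 4 mesenchymal markers. They were 0.143 to 2.39 CPM for 2 endothelial and 16.9 to 123 for 3 fibroblast markers. Basal markers were low in HCC38, with mean LNA NS levels of 61.1 CPM for KRT5, 2.05 for TP63, 1.67 for KRT6A, 0.55 for KRT17 and 0.48 for KRT14. VIM and FN1 had 516 and 576 CPM there. CPM are library-scaled counts, with TMM (trimmed mean of M values) factors. In RNA from whole cultures, fewer cells of a kind and less RNA per cell cannot be told apart.

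The 46 factors were expressed in all 3 lines, over a wide range. Per kilobase of the canonical transcript, SSU72, a phosphatase of the polymerase tail, had the highest level in LNA NS libraries (142 CPM per kb as the mean of the 3 lines). SRRT (ARS2, an adaptor of the nuclear cap) followed at 81.6 and SUPT5H at 71.8 CPM per kb. The lowest were INTS6 at 3.92, INTS2 at 2.96 and PAPOLG, a poly(A) polymerase, at 2.20 CPM per kb. The endonuclease CPSF3 was at 69.6 CPM per kb in SUM149PT, 42.1 in MDA-MB-468 and 21.7 in HCC38, all in LNA NS libraries.

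The factors did not fall together after knock-down. Rises and falls below are changes in the level of an mRNA at an adjusted p under 0.1 from the edgeR quasi-likelihood test with Benjamini-Hochberg adjustment over all tested genes. Log2 fold changes are knock-down over LNA NS, with their standard errors (SE). In MDA-MB-468, 14 of 46 factors rose and 11 fell, or 30.4% and 23.9%, against a background of 24.9% of all tested genes rising and 25.7% falling. In SUM149PT, 17 rose and 6 fell, or 37% and 13%, against a background of 20% and 18.0%. HCC38 leaned the other way, with 6 rising and 13 falling (13% and 28.3%, background 15.5% and 18.4%). On average over the 3 lines 16 rose and 13 fell, or 34.8% and 28.3%, against a background of 28.4% and 26.5%, which is close to that of all genes. The median log2 fold change of the 46 was −0.06 in HCC38, 0.03 in MDA-MB-468 and 0.11 in SUM149PT, beside 0.01, 0.00 and 0.03 over all tested genes.

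These counts depend on single libraries and on the scaling. In HCC38, 7 factors fell in place of 13 when knock-down replicate 2 or LNA NS replicate 1 was left out. That knock-down library had 53.0% of its counts in no gene, beside 44.5%, 42.0% and 40.8% in the other HCC38 libraries. Whether this bears on the counts of factors was not tested. In SUM149PT, 11 rose in place of 17 without knock-down replicate 1, and 10 without LNA NS replicate 2. With DESeq2 size factors in edgeR, HCC38 had 10 rising and 11 falling, beside 3614 and 3678 of all 21325 tested genes. Upper-quartile scaling moved the median of all genes to 0.14 in MDA-MB-468, 0.09 in SUM149PT, 0.13 in HCC38 and 0.15 in their mean on the log2 scale, and gave 20 rising and 6 falling, 20 and 6, 14 and 7, and 26 and 11 in the same order. Beside that shift, the median of the 46 was 0.07 in HCC38, 0.17 in SUM149PT and 0.17 in MDA-MB-468 under this scaling. Of all 21325 tested genes, 6630 rose and 4520 fell under it in MDA-MB-468 and 4903 and 3330 in SUM149PT. The all-gene counts were 4933 and 2842 in HCC38 and 7619 and 4493 in the mean.

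**Figure D1:**
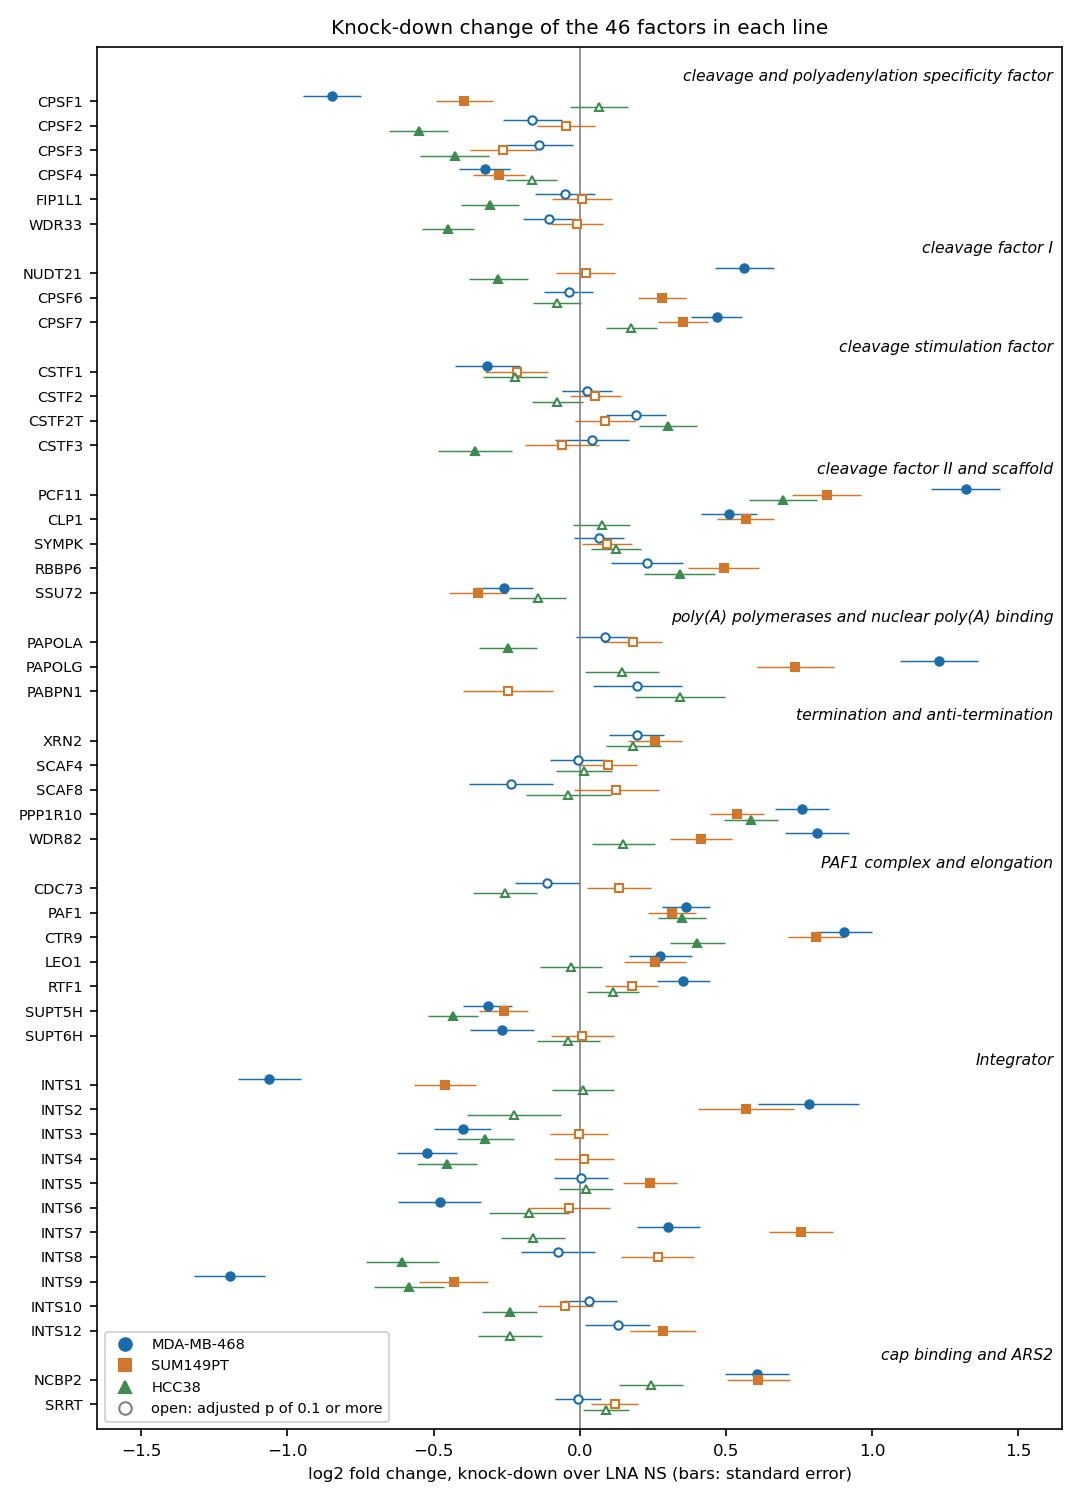
Log2 fold change (x axis, knock-down over LNA NS, bars for the standard error) of each of the 46 factors, grouped by role down the page, in MDA-MB-468 (circles), SUM149PT (squares) and HCC38 (triangles). Filled symbols passed an adjusted p under 0.1, and the values run from −1.2 for INTS9 to 1.32 for PCF11, both in MDA-MB-468.

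The plot of log2 fold changes by role shows few factors far from 0. Changes larger than 2-fold that passed were found in MDA-MB-468 only, where PCF11 and PAPOLG rose and INTS1 and INTS9 fell, 2 factors each way, against a background of 9.21% of all tested genes rising and 11.0% falling more than 2-fold. No factor rose or fell by more than 2-fold in SUM149PT (background 6.31% rising and 4.31% falling), in HCC38 (4.96% and 4.41%) or in the mean of the lines (7.09% and 5.43%). In each of the 3 lines 4 of the 46 factors rose (PCF11, PPP1R10, PAF1 and CTR9, against a background of 6.60%) and 2 fell (SUPT5H and INTS9, background 8.74%). Another 7 passed in no line, namely CSTF2, SYMPK, PABPN1, SCAF4, SCAF8, CDC73 and SRRT.

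PCF11 had the largest rise on average. It is the subunit of cleavage factor II that bridges the polymerase tail and the cleavage complex, and it takes part in releasing the polymerase. In MDA-MB-468 it had 121 and 142 CPM in knock-down libraries, against 49.6 and 55.5 CPM in LNA NS libraries. In SUM149PT the values were 100.02 and 99.1 CPM after knock-down and 59.2 and 51.6 CPM with LNA NS, and in HCC38 175 and 144 CPM against 93.4 and 104 CPM. Both knock-down libraries lay above both LNA NS libraries in every line. Its log2 fold changes were 1.32 (SE 0.118), 0.84 (SE 0.117) and 0.70 (SE 0.116) in these lines, with an edgeR adjusted p of 2.6e-07, 6.0e-05 and 3.4e-04. Of its annotated exonic bases, 16.99% lie opposite 2 non-coding genes (ANKRD42-DT and PCF11-AS1), and the strand setting used for counting is unknown from the sources used here.

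CTR9 and PAF1, subunits of the PAF1 complex that gives the polymerase its elongation platform, also rose in each line. CTR9 had 84.0 and 82.3 CPM after knock-down and 45.2 and 43.6 CPM with LNA NS in MDA-MB-468, 62.5 and 62.2 against 37.1 and 34.1 CPM in SUM149PT, and 57.9 and 50.9 against 39.96 and 42.4 CPM in HCC38. The gap was narrowest in HCC38, where the call was lost without knock-down replicate 1 (edgeR adjusted p = 0.107). PAF1 had 208 and 218 CPM after knock-down against 164 and 166 CPM with LNA NS in MDA-MB-468, 115 and 122 against 91.6 and 99.1 CPM in SUM149PT, and 145 and 153 against 117 and 117 CPM in HCC38. No library of one treatment reached the range of the other for either gene, and the mean log2 fold changes were 0.71 (SE 0.0553, edgeR adjusted p = 3.5e-08) for CTR9 and 0.34 (SE 0.0472, edgeR adjusted p = 1.6e-05) for PAF1.

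PPP1R10 (PNUTS) targets protein phosphatase 1 to the polymerase and to SPT5, and its action slows the polymerase past the polyadenylation site. It had 161 and 159 CPM in knock-down libraries and 95.1 and 93.5 CPM in LNA NS libraries of MDA-MB-468, 169.5 and 177 against 124 and 115 CPM in SUM149PT, and 193 and 179 against 114 and 134 CPM in HCC38. The groups did not overlap in any line, and the mean log2 fold change was 0.63 (SE 0.0534, edgeR adjusted p = 8.6e-08).

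INTS9, the partner of the Integrator endonuclease, had the largest fall on average, with a mean log2 fold change of −0.74 (SE 0.0692, edgeR adjusted p = 2.6e-07). It had 10.1 and 9.20 CPM after knock-down and 23.4 and 20.8 CPM with LNA NS in MDA-MB-468, 17.5 and 15.8 against 22.0 and 23.0 CPM in SUM149PT, and 11.4 and 10.5 against 16.1 and 16.8 CPM in HCC38. All 6 knock-down libraries lay below the LNA NS libraries of their line. The call in SUM149PT was lost without knock-down replicate 2 (edgeR adjusted p = 0.110).

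SUPT5H encodes SPT5, the elongation factor whose dephosphorylation goes with slowing at gene ends. It had 279.6 and 270.1 CPM in knock-down libraries and 334 and 350.4 CPM in LNA NS libraries of MDA-MB-468, 164 and 173 against 209.5 and 195 CPM in SUM149PT, and 182 and 186 against 234 and 262 CPM in HCC38. Again the groups did not overlap. The fall was modest, with a mean log2 fold change of −0.34 (SE 0.0489, edgeR adjusted p = 2.8e-05), and the call in SUM149PT was lost when knock-down replicate 1 or LNA NS replicate 1 was left out (edgeR adjusted p up to 0.202). The call in MDA-MB-468 was lost under upper-quartile scaling. Knock-down libraries lay wholly above LNA NS libraries for 18, 24 and 13 of the 46 factors in MDA-MB-468, SUM149PT and HCC38 (background 35.3%, 33.7% and 30.6%) and wholly below for 16, 8 and 20 (background 34.5%, 29.4% and 30.9%).

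**Figure D2:**
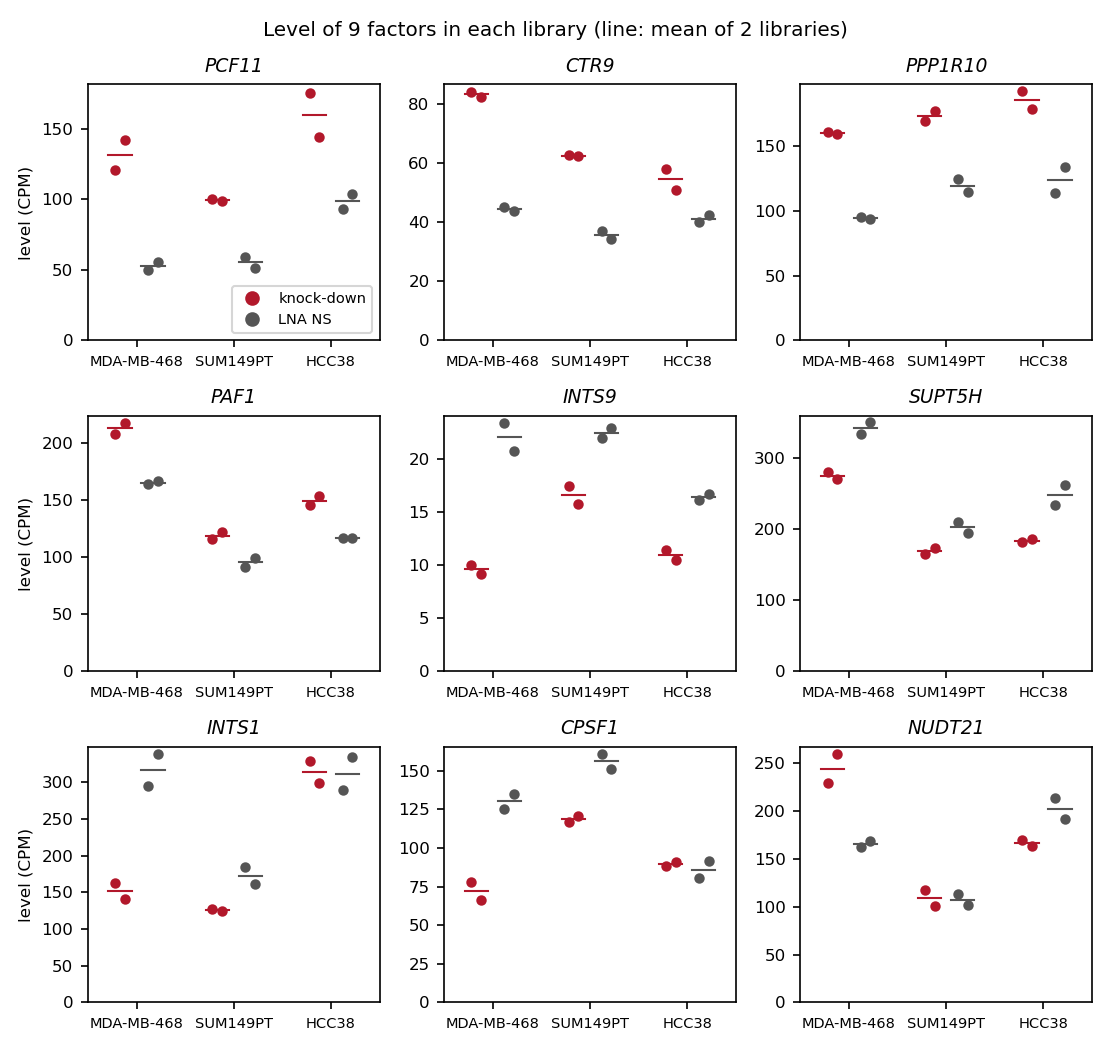
Level (CPM, y axis from 0) of 9 factors in each library, with knock-down libraries (red) left of LNA NS libraries (grey) in each line and a bar at the mean of the 2. PCF11, CTR9, PPP1R10 and PAF1 are higher and INTS9 and SUPT5H lower after knock-down in all 3 lines, whereas INTS1 and CPSF1 overlap in HCC38 and NUDT21 is higher in MDA-MB-468 and lower in HCC38.

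The stretch of DNA just upstream of the start site is shown for the factors that moved the same way in each line, as context for their shared rise or fall. Promoters of 39 of the 46 factors were matched by symbol in the RefSeq sequences used (GRCh38.p14), and those of CPSF1, CDC73, INTS5, INTS8, INTS9, INTS10 and SCAF4 were not. Each sequence is the 250 bases before the RefSeq start, 5′ to 3′ on the gene's own strand. Capitals mark CCAAT or TGACGT, on either strand.
PCF11: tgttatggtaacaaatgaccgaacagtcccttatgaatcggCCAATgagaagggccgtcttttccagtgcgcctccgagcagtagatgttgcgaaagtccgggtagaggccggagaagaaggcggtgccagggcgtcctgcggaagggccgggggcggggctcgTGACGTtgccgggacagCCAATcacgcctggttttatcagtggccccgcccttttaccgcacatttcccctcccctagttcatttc
PPP1R10: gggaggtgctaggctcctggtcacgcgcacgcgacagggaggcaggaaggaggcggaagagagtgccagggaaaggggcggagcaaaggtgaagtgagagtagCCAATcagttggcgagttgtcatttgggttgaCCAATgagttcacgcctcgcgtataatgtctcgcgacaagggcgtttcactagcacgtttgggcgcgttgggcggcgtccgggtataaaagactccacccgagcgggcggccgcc
PAF1: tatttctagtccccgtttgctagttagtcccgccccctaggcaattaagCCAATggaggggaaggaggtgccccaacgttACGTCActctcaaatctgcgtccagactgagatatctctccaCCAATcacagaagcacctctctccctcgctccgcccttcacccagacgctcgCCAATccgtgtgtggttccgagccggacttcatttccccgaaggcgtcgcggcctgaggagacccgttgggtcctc
CTR9: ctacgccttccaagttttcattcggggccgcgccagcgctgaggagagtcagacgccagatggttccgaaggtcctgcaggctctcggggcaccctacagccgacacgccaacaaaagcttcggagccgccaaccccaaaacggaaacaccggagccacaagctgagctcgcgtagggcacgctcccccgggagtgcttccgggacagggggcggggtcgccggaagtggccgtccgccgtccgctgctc
SUPT5H: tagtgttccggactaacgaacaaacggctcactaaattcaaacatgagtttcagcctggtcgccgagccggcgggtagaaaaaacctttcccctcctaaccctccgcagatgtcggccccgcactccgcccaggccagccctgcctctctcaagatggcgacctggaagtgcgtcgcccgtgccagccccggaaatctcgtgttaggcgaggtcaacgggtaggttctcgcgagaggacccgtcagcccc
In GRCh38.p14, the PCF11 sequence is chr11:83156881-83157130 (plus strand), PPP1R10 chr6:30617244-30617493 (minus), PAF1 chr19:39391107-39391356 (minus), CTR9 chr11:10750996-10751245 (plus) and SUPT5H chr19:39445332-39445581 (plus).

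CCAAT, the core of the motif bound by NF-Y, occurs in 3 of these 5 sequences: 3 times in PAF1, and 2 times each in PCF11 and PPP1R10. The pair in PCF11 begins 209 and 69 bases before the start, and the pair in PPP1R10 147 and 115 bases before it. Over all 39 matched factors 14 hold CCAAT (35.9%), beside 34.1% of the promoters of 13387 tested genes and 32.0% of all 35116 promoter entries. TGACGT, the core of the cyclic AMP response element, is in PCF11 and PAF1 and in 12 of 39 factors (30.8%), beside 9.66% of tested genes and 7.10% of all entries. These 12 include 6 of 16 factors that rose on average, 3 of 11 that fell and 3 of 12 that did not pass. GGGCGG, the GC box, is in 29 of 39 (74.4%, beside 63.3% of tested genes and 42.6% of all entries), CCGGAAG, an ETS motif, in 9 (23.1%, beside 13.9% and 8.52%), and TATAAA in PPP1R10 alone (2.56%, beside 6.40% and 10.7%). TTTCCCGC, TTTCGCGC, TTTGCCGC and TTTGGCGC, the forms of the E2F motif, are in 3 of 39 (7.69%, beside 4.01% and 2.79%), namely INTS7, CPSF3 and PABPN1. All were searched on both strands, each by itself, and CCAAT and TGACGT were chosen for display after the sequences had been read. A match is a run of letters and not a measured site.

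CPSF recognizes the AAUAAA signal through CPSF4 and WDR33 and cuts through CPSF3. Of its 6 subunits none rose in any line. On average 5 fell, all but FIP1L1, with mean log2 fold changes between −0.39 for CPSF1 and −0.19 for WDR33 and a median over the 6 of −0.25, beside 26.5% of all tested genes falling and a median of 0.04. By line, 4 of the 6 fell in HCC38 (background 18.4%), 2 in SUM149PT (background 18.0%) and 2 in MDA-MB-468, where the background of 25.7% is near their share. CPSF1, the largest subunit, had 78.3 and 66.5 CPM after knock-down and 125 and 135 CPM with LNA NS in MDA-MB-468, 117 and 121 against 161 and 151 CPM in SUM149PT, and 88.4 and 91.2 against 80.3 and 91.4 CPM in HCC38. The HCC38 libraries overlap, and CPSF1 fell in the other 2 lines, with log2 fold changes of −0.85, −0.39 and 0.06 that differed between lines (edgeR adjusted p = 0.0012 for the difference). CPSF2, CPSF3, FIP1L1 and WDR33 fell in HCC38 alone, with log2 fold changes from −0.55 to −0.31 there. Their tests of a difference between lines passed for CPSF2 and WDR33 (edgeR adjusted p = 0.035 and 0.036) but not for CPSF3 or FIP1L1 (0.40 and 0.21). CPSF4 fell in the other 2 lines (−0.33 and −0.28). Calls were lost without 1 library for CPSF3 in HCC38 (LNA NS replicate 1, edgeR adjusted p = 0.172), for FIP1L1 in HCC38 (knock-down replicate 2 or either LNA NS library, up to 0.311) and for CPSF4 in SUM149PT (knock-down replicate 1 or either LNA NS library, up to 0.144). The differences between lines were lost for CPSF2 and WDR33 in some of these fits (up to 0.182 and 0.171). Of the exonic bases of WDR33, 25.7% lie opposite SFT2D3. With upper-quartile scaling 4 of the 6 fell on average, with a median of −0.15.

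Cleavage factor I binds UGUA upstream of the cut and favors distal polyadenylation sites. CPSF7, its large subunit, rose on average (0.33, SE 0.0503, edgeR adjusted p = 4.2e-05). It had 337 and 326 CPM after knock-down against 231 and 248 CPM with LNA NS in MDA-MB-468, 313 and 313 against 252 and 238 CPM in SUM149PT, and 256 and 230.5 against 204 and 227 CPM in HCC38. Its groups were separate in all 3 lines, though the HCC38 gap did not pass the test (edgeR adjusted p = 0.15). NUDT21, the small subunit, was the 1 factor of the 46 with calls in opposite directions. It had 229 and 259.7 CPM after knock-down against 162 and 169 CPM with LNA NS in MDA-MB-468, 117 and 100.5 against 113 and 102 CPM in SUM149PT, and 170.3 and 164 against 214 and 192 CPM in HCC38. The log2 fold changes were 0.56, 0.02 and −0.28, and the difference between lines passed (edgeR adjusted p = 0.0020). The fall in HCC38 was lost when either knock-down library or LNA NS replicate 1 was left out (edgeR adjusted p up to 0.319). CPSF6, the other large subunit, rose in SUM149PT (0.28), a call lost without LNA NS replicate 2 (edgeR adjusted p = 0.133).

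CstF binds downstream of the cut site. Its subunit CSTF1 fell on average (−0.25, SE 0.0630, edgeR adjusted p = 0.0035). CSTF1 had 26.2 and 22.4 CPM after knock-down against 30.5 and 30.0 CPM with LNA NS in MDA-MB-468, 75.6 and 69.3 against 84.0 and 84.3 CPM in SUM149PT, and 34.4 and 33.2 against 42.9 and 35.9 CPM in HCC38. Knock-down libraries were lower in every line, by an amount that passed in MDA-MB-468 only and was lost there without knock-down replicate 2 or LNA NS replicate 1 (edgeR adjusted p up to 0.271). CSTF2T, an intronless paralog of the RNA-binding subunit CSTF2, rose on average (0.19), whereas CSTF2 itself had a mean of 0.00 and CSTF3 of −0.13, which did not pass.

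Of the 5 genes grouped as cleavage factor II and scaffold, 3 rose on average and 1 fell (background 28.4% and 26.5%). Besides PCF11, these were its partner CLP1, an RNA kinase (mean 0.38, with 0.57 in SUM149PT, 0.51 in MDA-MB-468 and 0.07 in HCC38), and RBBP6, which activates CPSF (mean 0.35). SSU72 fell (mean −0.25), and the scaffold SYMPK had a mean of 0.09 that did not pass. PAPOLG rose in 2 lines: it had 23.7 and 27.2 CPM after knock-down against 11.0 and 10.7 CPM with LNA NS in MDA-MB-468, 26.6 and 23.0 against 15.4 and 14.4 CPM in SUM149PT, and 27.6 and 22.4 against 23.4 and 22.0 CPM in HCC38. Its log2 fold changes of 1.23, 0.74 and 0.14 differed between lines (edgeR adjusted p = 0.0022), and the HCC38 libraries overlapped. PAPOLA, the main nuclear poly(A) polymerase, had a mean of 0.01, and PABPN1, the nuclear poly(A)-binding protein, of 0.10. PABPN1 shares 39.3% of its exonic bases with the readthrough gene BCL2L2-PABPN1 on the same strand, so its counts are uncertain.

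Of the 5 listed factors that stop the polymerase or keep it from stopping early, none fell in any line. The shares of all tested genes that fell were 25.7%, 18.0% and 18.4% (MDA-MB-468, SUM149PT, HCC38). With only 5 factors, an absence of falls says little beside these shares. Of 9 related termination genes outside the 46, 2 rose and 2 fell on average. Those falls, TTF2 (−0.80) and PHF3 (−0.51), were called in all 3 lines. XRN2, the exonuclease, rose on average by a small amount (0.21, SE 0.0538, edgeR adjusted p = 0.0038) with log2 fold changes of 0.19, 0.26 and 0.18 in MDA-MB-468, SUM149PT and HCC38. It passed in SUM149PT only, a call lost without either LNA NS library or knock-down replicate 1 (edgeR adjusted p up to 0.517). SCAF4 and SCAF8, which prevent early polyadenylation, had means of 0.04 and −0.05 and passed nowhere. WDR82, which binds PPP1R10 in the phosphatase complex, had 124 and 134 CPM after knock-down against 71.0 and 75.7 CPM with LNA NS in MDA-MB-468, 180.1 and 156 against 135 and 118 CPM in SUM149PT, and 121 and 109 against 95.8 and 111 CPM in HCC38. It rose in the first 2 lines (0.81 and 0.41) and overlapped in HCC38 (0.15), with a difference between lines (edgeR adjusted p = 0.014). The SUM149PT call of WDR82 was lost without knock-down replicate 1 or LNA NS replicate 2 (edgeR adjusted p up to 0.118). TOX4, a further subunit of that complex, singled out after its values were seen, had a mean of 0.24 (edgeR adjusted p = 0.0014), and PPP1CC, 1 of its catalytic subunits, of 0.31 (edgeR adjusted p = 3.3e-04). The other catalytic subunits listed, PPP1CA and PPP1CB, had means of −0.09 and 0.05 that did not pass.

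The rest of the PAF1 complex moved less than CTR9 and PAF1. RTF1 and LEO1 rose on average (0.22 and 0.17). The call of LEO1 (edgeR adjusted p = 0.033) was lost on leaving out LNA NS replicate 2 of MDA-MB-468, LNA NS replicate 1 of SUM149PT, or knock-down replicate 1 or LNA NS replicate 2 of HCC38 (up to 0.155). CDC73 had a mean of −0.08 that did not pass. SUPT6H, which encodes the histone chaperone SPT6, fell in MDA-MB-468 (−0.27, lost without knock-down replicate 2 or either LNA NS library, edgeR adjusted p up to 0.402) and had values of 0.01 and −0.04 in SUM149PT and HCC38.

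Integrator was mixed. Of its 11 listed subunits 5 fell and 2 rose on average, or 45.5% and 18.2%, against a background of 26.5% and 28.4%. Their median log2 fold change was −0.14 (4 and 4, with a median of −0.03, under upper-quartile scaling). INTS1, the largest backbone subunit, had 162 and 141 CPM after knock-down against 295 and 338 CPM with LNA NS in MDA-MB-468, 127 and 124 against 184 and 161 CPM in SUM149PT, and 329 and 299 against 289 and 334 CPM in HCC38. It was lower in 2 lines and overlapped in HCC38, with log2 fold changes of −1.06, −0.46 and 0.01. INTS1 gave the smallest adjusted p of the 46 for a difference between lines (edgeR adjusted p = 6.1e-04).

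The backbone subunits INTS2 and INTS7 went up where INTS1 went down. INTS2 had 13.5 and 15.4 CPM after knock-down against 7.68 and 9.12 CPM with LNA NS in MDA-MB-468, 26.9 and 26.6 against 21.3 and 14.6 CPM in SUM149PT, and 26.9 and 20.9 against 27.6 and 28.4 CPM in HCC38. INTS7 had 94.9 and 84.6 against 76.0 and 69.5 CPM, 111 and 91.7 against 61.9 and 58.2 CPM, and 54.4 and 51.1 against 61.7 and 56.2 CPM in the same order. Both rose in MDA-MB-468 and SUM149PT, lay lower in HCC38 without passing, and differed between lines (edgeR adjusted p = 0.012 for INTS2 and 0.0021 for INTS7). The call of INTS2 in SUM149PT was lost without LNA NS replicate 2 (edgeR adjusted p = 0.218), and that of INTS7 in MDA-MB-468 without knock-down replicate 1 or LNA NS replicate 2 (up to 0.254).

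INTS8, which holds protein phosphatase 2A to Integrator, fell in HCC38 only. It had 30.9 and 29.5 CPM after knock-down against 33.6 and 30.0 CPM with LNA NS in MDA-MB-468, 54.9 and 43.0 against 40.8 and 40.8 CPM in SUM149PT, and 34.3 and 34.4 against 57.5 and 47.2 CPM in HCC38. The HCC38 log2 fold change was −0.61 (SE 0.125, edgeR adjusted p = 0.0019), the lowest of the 46 factors in that line, and the lines differed (edgeR adjusted p = 0.0067). Of its exonic bases 20.7% lie opposite CCNE2. INTS4, which joins INTS9 and the endonuclease INTS11 in the cleavage module, fell in MDA-MB-468 and HCC38 (−0.52 and −0.45) with a value of 0.01 in SUM149PT. Of 9 related Integrator genes 2 rose and 3 fell on average, or 22.2% and 33.3%, against a background of 28.4% and 26.5%. INTS13 (−0.43, edgeR adjusted p = 1.3e-04) and INTS15 (−0.23, 0.0031) fell, and NABP1 (0.29, 0.0014) and NABP2 (0.18, 0.00999), single-strand DNA-binding partners of Integrator, rose. INTS11, singled out like NABP2 after its values were seen, had a mean of −0.13 (edgeR adjusted p = 0.038), a call lost without knock-down replicate 2 of MDA-MB-468 (edgeR adjusted p = 0.110) and under upper-quartile scaling. Of the remaining subunits, INTS3 and INTS6 fell on average (−0.24 and −0.23), the call of INTS6 being lost without LNA NS replicate 2 of MDA-MB-468 or LNA NS replicate 1 of SUM149PT (edgeR adjusted p up to 0.127). INTS5, INTS10 and INTS12 had means of 0.09, −0.08 and 0.06 that did not pass.

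NCBP2, the small subunit of the nuclear cap-binding complex, which Integrator and the cleavage complex both meet through ARS2, rose in 2 lines. It had 117 and 146 CPM after knock-down against 89.8 and 83.0 CPM with LNA NS in MDA-MB-468, 129 and 136 against 83.0 and 90.1 CPM in SUM149PT, and 89.6 and 101 against 82.8 and 77.9 CPM in HCC38. The libraries were separate in all 3 lines, with a mean log2 fold change of 0.49 (SE 0.0627, edgeR adjusted p = 8.1e-06). Its large partner NCBP1, from the list of related genes, moved the other way and much further. NCBP1 had 6.05 and 5.34 CPM after knock-down against 65.3 and 60.8 CPM with LNA NS in MDA-MB-468, 27.6 and 19.0 against 129.8 and 124 CPM in SUM149PT, and 21.1 and 19.3 against 116 and 115 CPM in HCC38. ARS2 itself (SRRT) had log2 fold changes of −0.01, 0.12 and 0.09 and passed in no line.

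Other pairs of partners also split. SUPT4H1, the partner of SPT5 in the elongation factor DSIF, rose on average (0.39, SE 0.0659, edgeR adjusted p = 1.4e-04) while SUPT5H fell. The negative elongation factor, which holds the paused polymerase with DSIF, had 2 subunits that fell on average, NELFB (−1.09, SE 0.0506) and NELFE (−0.61, SE 0.0544), beside NELFCD that rose (0.25) and NELFA that did not pass (0.08), the last pair named after their values were seen to complete the complex. NELFB had 23.7 and 22.0 CPM after knock-down against 65.2 and 68.8 CPM with LNA NS in MDA-MB-468, 66.4 and 62.0 against 122 and 123 CPM in SUM149PT, and 63.7 and 64.4 against 113 and 110.3 CPM in HCC38. Of 9 further termination genes 2 rose and 2 fell on average, or 22.2% each, against a background of 28.4% and 26.5%. The falls were TTF2, a helicase that releases the polymerase (−0.80, edgeR adjusted p = 1.5e-07), and PHF3, which binds the polymerase tail (−0.51, edgeR adjusted p = 1.1e-05). Over all 56 related genes that could be matched, 22 rose and 13 fell on average, or 39.3% and 23.2%, against a background of 28.4% and 26.5%, and the median log2 fold change was 0.04.

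Among the 46 factors, 19 had changes that differed between lines at an adjusted p under 0.1 (background 32.4%). The count was 12 without knock-down replicate 1 of SUM149PT and 12 without knock-down replicate 2 of HCC38. Of these 19, 9 passed in every fit that left out 1 library, among them INTS1, CPSF1, NUDT21, INTS7 and PAPOLG.

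The changes in HCC38 also went with gene length. A gene's span is the distance from its start to its end in a GENCODE annotation lifted to GRCh37, whose models can differ from those counted on. The median span of the factors was 40498.5 bases and that of the tested genes 21770 bases. In HCC38 none of the 16 factors that span over 60 kb rose and 7 fell, with a median log2 fold change of −0.24, whereas of 11 factors under 20 kb 3 rose and none fell, with a median of 0.09. All tested genes had medians of −0.24 over 60 kb and 0.13 under 20 kb in that line, close to those of the factors. Of all tested genes over 60 kb, 8.45% rose and 36.7% fell there, beside 0 and 43.8% of the 16 factors, which is near that background. Under 20 kb 18.6% of all tested genes rose and 7.66% fell, beside 27.3% and 0 of the 11 factors. In MDA-MB-468, 18.75% of the 16 factors over 60 kb rose and 18.75% fell, with a median of −0.03. Of all tested genes over 60 kb there, 16.6% rose and 42.7% fell, with a median of −0.28. In SUM149PT, 25% of these factors rose and 6.25% fell (median 0.13), beside 17.8% and 27.6% of all such genes (median −0.03). Spearman's rho between span and log2 fold change was −0.56 over the 46 factors and −0.28 over 20686 tested genes in HCC38, −0.26 and −0.22 in MDA-MB-468, and −0.03 and −0.09 in SUM149PT. These are correlations across genes that share the same libraries, given as a description. With the trend of all genes by length removed, 7 factors rose and 11 fell in HCC38, beside 6 and 13 before. Of all 21325 tested genes, 3184 rose and 3465 fell there in that fit. The calls of INTS4 in MDA-MB-468, HCC38 and the mean were lost in that fit, whereas INTS9 was called in all 3 lines and INTS8 in HCC38. With the replicate block as well, 5 factors rose and 7 fell in HCC38.

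**Figure D3:**
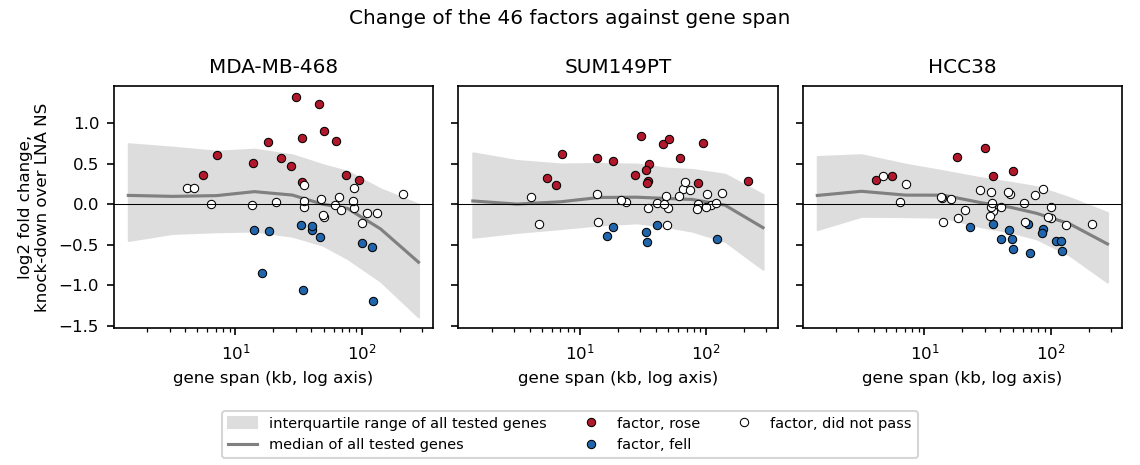
Log2 fold change (knock-down over LNA NS) against gene span (kb, log axis) for the 46 factors in each line, colored by call, over the median (line) and interquartile range (grey band) of all tested genes. In HCC38 the 7 called falls among factors over 60 kb run from −0.61 (INTS8) to −0.24 (PAPOLA). As these 7 were picked as falls, their place below the median of genes of like span follows largely from that choice. The median of all tested genes is −0.11 for 60 to 100 kb (lower quartile −0.43) and −0.24 for 100 to 200 kb (lower quartile −0.63). All 16 factors over 60 kb had a median of −0.24, as did all tested genes over 60 kb. In SUM149PT factors of all lengths scatter around 0.

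As a readout of transcription past gene ends, reads were summed over genes that lie just downstream of an active gene and are otherwise quiet. A gene entered if it averaged under 0.5 CPM in the LNA NS libraries of the other lines and started within 10 kb past the end of a gene on the same strand with at least 10 CPM in the LNA NS libraries of the line. In MDA-MB-468, 1116 such genes summed to 426 and 439 CPM after knock-down and 380.2 and 358 CPM with LNA NS. In SUM149PT, 1083 genes summed to 221 and 245 CPM after knock-down and 156 and 162 CPM with LNA NS. In HCC38, 1179 genes summed to 605 and 651 CPM after knock-down and 447 and 465 CPM with LNA NS. Knock-down sums were thus higher in all 3 lines, by ratios of 1.17, 1.46 and 1.38.

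The comparison genes met the same quiet limit but had no gene end on the same strand within 50 kb upstream. They gave ratios of 0.806, 1.06 and 1.06 over 13194, 13220 and 13299 genes. The sets were not matched for level. In LNA NS libraries the comparison genes summed to 1891, 955 and 2135 CPM, beside 369, 159 and 456 CPM for the far fewer genes behind a gene end. Their level per gene was thus lower. Genes with no counts cannot separate the libraries, so the shares below also depend on level. Genes with both knock-down libraries above both LNA NS libraries made up 29.0%, 24.2% and 27.1% of the quiet genes behind a gene end, beside 4.98%, 5.67% and 6.49% of the others. Those with both below made up 7.17%, 5.45% and 7.46%, beside 4.54%, 3.64% and 4.94%. In MDA-MB-468 the ratio depended on how quiet genes were defined: with a limit of 0.2 CPM the log2 ratio was −0.0072 in place of 0.23, and without the 10 genes with the largest rises the ratio was 1.08. In the other lines the ratio without those 10 genes was 1.29 and 1.25. No test was made on these sums, gene annotation beyond an end can be incomplete, and reads past a gene end were not measured directly.

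**Figure D4:**
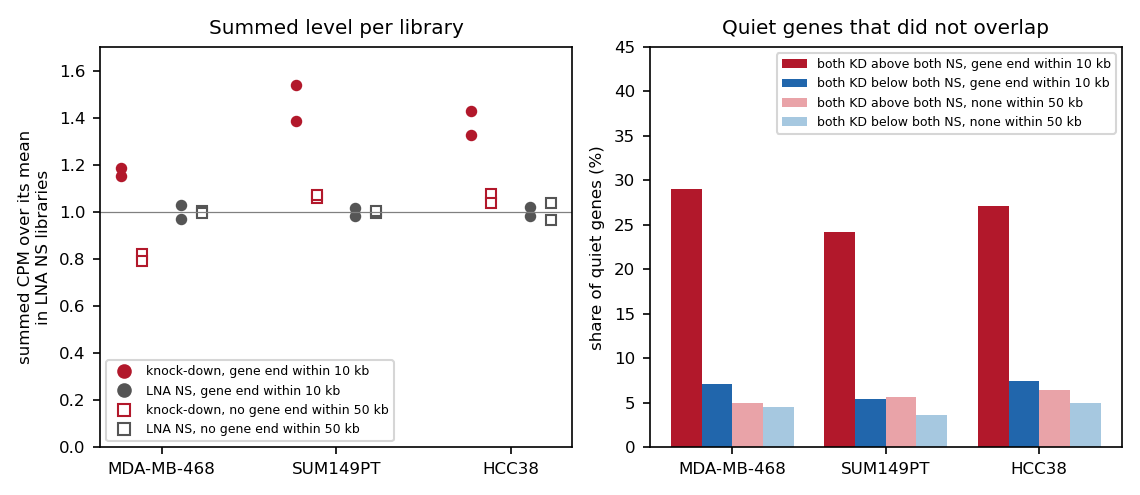
Left, summed CPM of quiet genes over the LNA NS mean, per library, for genes within 10 kb past a gene end (filled circles) and genes with no gene end within 50 kb (open squares), knock-down in red and LNA NS in grey. Right, share (%) of quiet genes with both knock-down libraries above or below both LNA NS libraries, which is 24.2% to 29.0% above for genes behind a gene end.

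Set beside these sums, the factors gave no common direction. In SUM149PT 17 factors rose and 6 fell (37% and 13%, background 20% and 18.0%) with a ratio of 1.46. In HCC38 6 rose and 13 fell (13% and 28.3%, background 15.5% and 18.4%) with 1.38. In MDA-MB-468 14 rose and 11 fell (30.4% and 23.9%, near the background of 24.9% and 25.7%) with 1.17. The order of the lines by this ratio changed with the distance allowed to the gene end. The calls present in each of these lines were the falls of INTS9 and SUPT5H (background 8.74%) and the rises of PCF11, PPP1R10, PAF1 and CTR9 (background 6.60%). XRN2 was called in SUM149PT only. Without regard to calls, its knock-down libraries lay above LNA NS in every line, and those of CPSF3, CPSF4 and CSTF1 lay below. With 3 lines no relation between the factors and the sums could be tested.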

How the data were processed

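The authors sequenced strand-specific poly-A libraries, mapped them to hg19 (STAR in the study's methods, TopHat2 2.0.13 in the submitters' notes) and deposited raw read counts per Ensembl gene from HTSeq 0.6.0. The annotation release and strand setting are not given in the sources used here. Reads in no gene (40.8% to 53.7% per library) were left out.

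Counts of all 12 libraries were fitted with edgeR 4.0.16 (limma 3.58.1, R 4.3.3): TMM scaling, genes kept by filterByExpr (minimum count 10, minimum total 15), 6 group means, quasi-likelihood tests of knock-down minus LNA NS in each line, of their mean and of their differences, and Benjamini-Hochberg adjustment over all 21325 tested genes. The tests within each line and of their mean were tried on simulated counts in which changed genes moved alike in every line. The test of differences between lines was not tried in this way. Alternatives included DESeq2 1.42.0, other scalings and filters, a replicate block, removal of the trend with gene length, and leaving out each library. Gene ends and spans came from GENCODE v44 lifted to GRCh37.

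The members and the lists of related genes were chosen with earlier results of these data known. Genes described library by library are the 10 with the smallest adjusted p in the mean of the lines, the 8 with the smallest adjusted p for a difference between lines, and in each role group the member with the largest mean change, 17 in all. Of each list of related genes, up to 3 with the smallest adjusted p were to be named. The result for 1 of the related genes is not reported here.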

Additional observations from a re-analysis of the deposited data

Results flagged for a closer look

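The knock-down change of 19 of the 46 factors differed between the lines in the edgeR test of the difference itself. The adjusted p was 6.1e-04 for INTS1, 0.0012 for CPSF1, 0.0020 for NUDT21, 0.0021 for INTS7, 0.0022 for PAPOLG, 0.0067 for INTS8 and 0.0085 for INTS9. It was 0.012 for INTS2, 0.014 for WDR82, 0.024 for INTS4, 0.025 for PCF11, 0.026 for CTR9, 0.028 for CLP1, 0.035 for CPSF2 and 0.036 for WDR33. It was 0.051 for INTS12, 0.055 for CPSF6, 0.073 for PAPOLA and 0.089 for INTS3. PCF11 and CTR9 rose in every line, so the difference there is one of size, and it was lost for PCF11 without knock-down replicate 2 or LNA NS replicate 1 of MDA-MB-468 (up to 0.155) and for CTR9 when replicate 2 of either treatment in HCC38 was left out (up to 0.153). With 2 libraries in each group no single library could be tested as standing apart from its group.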

How the results depend on the processing

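Over all alternatives, 4614 of 4968 values of single factors stayed on their side of the threshold, 215 lost a call, 135 gained one and 4 reversed. A reversal is a change of direction with a call before or after it, and changes of direction without a call were not counted. The reversed values were those of CDC73, which had no call before: 0.27 in MDA-MB-468 and 0.17 in the mean with the length trend removed, and 0.27 and 0.16 with the replicate block as well. A limit of 2-fold left 2 fallen and 2 risen factors in MDA-MB-468 and 0 of either in SUM149PT, HCC38 and the mean. Upper-quartile scaling gave 6 fallen in MDA-MB-468, 7 fallen and 14 risen in HCC38, and 26 risen in the mean. Among all 21325 tested genes it gave 4520 fallen in MDA-MB-468, 2842 fallen and 4933 risen in HCC38, and 7619 risen in the mean. In HCC38, 10 factors rose with RLE size factors, with DESeq2 and with at least 10 counts in every library. Of all 21325 tested genes, 3614 rose there with RLE size factors and 3303 with DESeq2. The length trend removed with the replicate block gave 7 fallen in HCC38 and 11 differing between lines.

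Leaving out 1 library gave 8 to 11 fallen and 12 to 15 risen in MDA-MB-468, 4 to 7 and 10 to 17 in SUM149PT, 7 to 13 and 4 to 7 in HCC38, 12 to 15 and 15 to 17 in the mean, and 12 to 20 differing between lines. Of the calls, 19 of 25, 11 of 23, 9 of 19 and 27 of 29 held in every such fit in MDA-MB-468, SUM149PT, HCC38 and the mean.

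Deviations of same-numbered libraries correlated at r = −0.038, 0.23 and −0.30 in MDA-MB-468, SUM149PT and HCC38, with no common direction. Counts in no gene, LNA NS then knock-down, went with the number in SUM149PT (47.1% and 44.4% in replicate 1, 53.7% and 53.2% in replicate 2). They did so in MDA-MB-468 too (50.5% and 51.4%, then 47.3% and 45.5%), but not in HCC38 (42.0% and 44.5%, then 40.8% and 53.0%). Whether the numbers mark a pairing or a batch was not tested, and the main fit held no term for either. With the replicate block 11, 6, 12 and 13 factors fell and 14, 14, 6 and 16 rose in these lines and the mean, and 17 differed between lines. A block with crossed numbers in HCC38, added after seeing the data, gave 14 fallen and 8 risen there.

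The log2 ratio of summed quiet genes in MDA-MB-468 was 0.23, but 0.70 with a gene end within 5 kb, 0.34 with a limit of 1 CPM and −0.0072 with a limit of 0.2 CPM. In SUM149PT it was 0.55, and 0.42 with a gene end within 20 kb. Without 1 library it ranged over 0.185 to 0.270, 0.471 to 0.623 and 0.408 to 0.514 in MDA-MB-468, SUM149PT and HCC38. The causes of these shifts were not tested.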

Other observations

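Genes of related steps were listed in the same way as the 46 factors. Of 12 kinases, phosphatases and binding proteins of the polymerase tail, 5 rose on average (background 28.4%). The rises were led by CCNT1 (0.79, SE 0.0778) and CCNT2 (0.75, SE 0.0598), cyclins of the elongation kinase P-TEFb, whose kinase CDK9 had 0.11, and by RPAP2, a phosphatase of the tail (0.61, SE 0.0584). CTDP1, another tail phosphatase, fell (−0.37).

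Of 6 genes for the 3-prime ends of histone transcripts, which are cut without a poly(A) tail, 5 rose and 1 fell on average (background 28.4% and 26.5%), with a median of 0.29. ZNF473, a component of the U7 complex, rose most (0.92, SE 0.0552), followed by LSM11 (0.41), CASP8AP2 (0.32), NPAT (0.26) and SLBP (0.12), and LSM10 fell (−0.17). By line, 5 rose and 0 fell in MDA-MB-468 (background 24.9% and 25.7%), 4 and 0 in SUM149PT (20% and 18.0%) and 1 and 1 in HCC38 (15.5% and 18.4%), and a difference between lines for the list was not tested.

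Of 3 proteins of the U1 particle, which guards against early polyadenylation, SNRPC rose on average (0.17), and SNRNP70 and SNRPA did not pass (0.03 and −0.08). PABPC4, a cytoplasmic poly(A)-binding protein, rose in all 3 lines (mean 0.29, SE 0.0427), and PABPC1 had a mean of 0.01 that did not pass. Among nuclear RNA decay and export genes, ZC3H14, a nuclear poly(A)-binding protein, fell in all 3 lines (mean −0.76, SE 0.0608), the helicase MTREX fell (−0.39), and PHAX, which exports small nuclear RNA, rose (0.33).
CDK9, CTDP1, NPAT, SLBP, LSM10 and MTREX were named after their values were seen.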
